A study of Danio rerio with 6 samples.

Results

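The genes of cholesterol synthesis and sterol regulation were examined in RNA from whole zebrafish embryos labelled as homozygous mutant or wild type for synpo2. The genes described here were defined by 31 gene symbols, covering the sterol-sensing regulators, the enzymes from acetyl-CoA to cholesterol, the low-density lipoprotein receptors, the lysosomal cholesterol exporters and the cholesterol-esterifying enzymes. Symbols were matched without regard to case, and where a symbol was absent the human-style name without its final a or b was used with all of its copies. In this way 29 of the 31 symbols led to 30 of the 31484 genes in the count tables, and insig2 and cyp51 were not matched. The matching uses no measured value, though the symbols were listed with earlier results of these data known. A filter on low counts (edgeR's filterByExpr) kept 28 of the 30 genes and left out ldlra and a second copy of SQLE.

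The embryos were taken at 22 hours post fertilization and belonged to 2 genotypes, homozygous synpo2 mutants (synpo2 -/-) and embryos homozygous for the wild-type allele (synpo2 wt/wt), with 3 biological replicates of each. The labels give neither the strain, nor the lesion, nor the number of embryos per library. synpo2 encodes synaptopodin-2, which binds actin at the Z-discs of striated muscle. Gene counts were compared between the genotypes with edgeR's quasi-likelihood test, and p values were adjusted by the Benjamini-Hochberg method over all 20415 tested genes.

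Animal cells make cholesterol from acetyl-CoA through mevalonate, isoprenoid pyrophosphates, squalene and lanosterol. When sterols run low in the endoplasmic reticulum, the escort protein SCAP carries SREBP transcription factors to the Golgi, where they are cut and released to switch on the enzymes and the receptors for lipoprotein uptake. When sterols are plentiful, INSIG proteins hold SCAP back. The early zebrafish embryo also draws lipid from its yolk through the yolk syncytial layer, a sheet of nuclei that packs lipid into lipoproteins.

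Library totals ran from 32714170 to 34227596 counts in mutants and from 32850819 to 142789686 counts in wild type. Wild type replicate 1 was 4.26 times as deep as the mean of the other 5 libraries, and 1 count there was worth 0.00798 CPM (counts scaled to library size after TMM adjustment), against 0.0261 to 0.0304 CPM in the others. The synpo2 copy named in the tables, synpo2b (ENSDARG00000077157, chromosome 1), was at 1.71, 1.58 and 1.51 CPM in mutants and at 3.96, 3.91 and 6.09 CPM in wild type, lower in each mutant library. The lesion is not stated, so a transcript level cannot by itself check the labels. Summed markers of fast skeletal muscle ranged from 4271 to 7362 CPM in mutants and from 7763 to 12002 CPM in wild type, with 12 of 12 markers lower in mutants. Summed markers of neurons ranged from 837.9 to 1216 CPM in mutants and from 985.9 to 1448 CPM in wild type, with 11 of 11 lower. Those of tailbud and presomitic mesoderm, which are most active at younger stages, ranged from 197.6 to 274.2 CPM in mutants and from 143.0 to 160.0 CPM in wild type, with 8 of 8 tested markers higher. The neuron sums overlapped between the genotypes. At an unadjusted edgeR p under 0.05, 1 of the 11 neuron markers was lower (6.83% of all tested genes). For 0 of the 11 did all mutant libraries lie below all wild-type libraries (9.63% of all tested genes). These differences in marker levels run alongside every comparison below, and their part in it was not tested. In whole embryos, fewer cells of a type and less RNA per cell cannot be told apart.

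Of the 28 tested sterol genes, 0 differed between the genotypes at an adjusted p under 0.05 by edgeR (lowest 0.338), where 0.0735% of all tested genes did. DESeq2 also called 0 of the 28, against 1.5% of all genes lower and 0.706% higher, and limma-voom called 0, against 0.0833%. Small differences could be missed. In simulated data, edgeR picked up 28% of genes changed 2-fold and DESeq2 48%, all at a mean of at least 1 CPM. At an unadjusted p under 0.05, 5 of the 28 (17.9%) were lower in mutants, against 6.83% of all tested genes, and 0 were higher, against 4.39%. These 5 were srebf2, NSDHL, LSS, LBR and MSMO1, and DESeq2 gave an unadjusted p under 0.05 for each of them as well. The count of 5 was 0 without mutant replicate 2 and 2 without wild type replicate 1 or 2. The count of 0 higher was 3 without mutant replicate 3. Shares of all tested genes at that p are not given here for these fits, so these counts have no baseline. The number of genes called over the whole table also fell without mutant replicate 2. The 3 mutant libraries lay below all 3 wild-type libraries for the same 5 of the 28 (17.9%), against 9.63% of all tested genes. No sterol gene had all mutant libraries above all wild-type libraries, as 8.45% of all tested genes did. The median log2 fold change was -0.12 over the 28 genes and 0.01 over all tested genes, with 16 of the 28 (57.1%) below 0, against 49.1% of all tested genes. That median of -0.12 was -0.27 without mutant replicate 1 and -0.06 without wild type replicate 1. The matching medians over all tested genes are not given here.

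By role, 13 of the 18 tested synthesis enzymes were lower in mutants, with a median log2 fold change of -0.22. Among the 8 tested enzymes that turn lanosterol into cholesterol, 7 were lower, with a median of -0.35. The 6 tested genes of uptake, lysosomal export and esterification went the other way in 5 cases, with a median of 0.50. Over all tested genes, 49.1% were lower, with a median of 0.01. Without mutant replicate 1, SOAT1 (-0.67), SOAT2 (-0.98) and ldlrb (-0.0037) changed sign. NPC1 (0.21) and the NPC2 gene ENSDARG00000090912 (0.53) stayed higher, and the short NPC2 entry ENSDARG00000096979 stayed lower. In that fit 4 of the 6 were lower in mutants (median -0.34). So were 17 of the 18 synthesis enzymes (median -0.27) and 8 of 8 lanosterol-to-cholesterol enzymes (median -0.49). Without wild type replicate 1, the medians were -0.10 for the synthesis enzymes, -0.12 for the lanosterol-to-cholesterol enzymes and 0.33 for uptake, export and esterification. Shares and medians over all tested genes are not given here for the fits that left out a library. The counts and medians from those fits therefore have no baseline beside them.

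**Figure D1:**
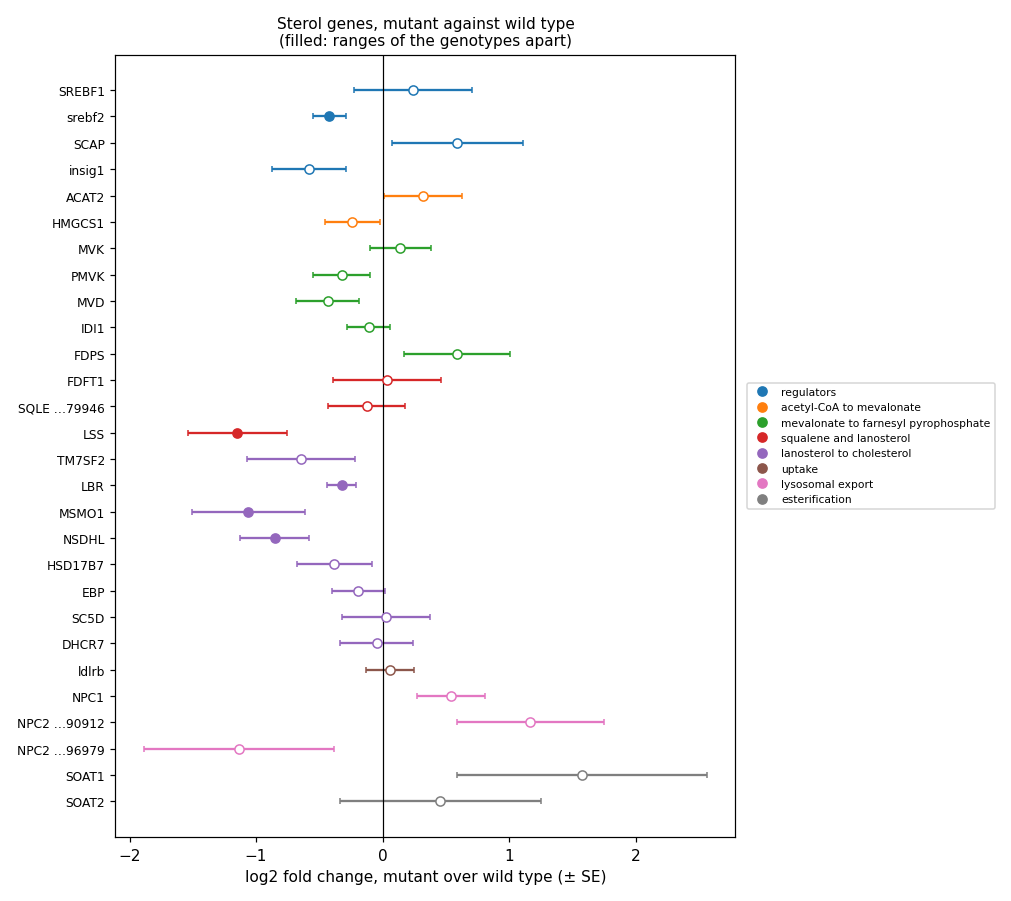
Log2 fold change of mutant over wild type for the 28 tested sterol genes, with the SE as bars, in pathway order from the regulators at the top to the esterifying enzymes at the bottom. Colour gives the role, filled points mark the 5 genes whose libraries did not overlap between the genotypes, and copies are told apart by the last digits of the gene ID; all 5 filled points lie left of 0.

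Of the regulators, srebf2 and SREBF1 encode the membrane-bound SREBP factors, with srebf2 the main driver of cholesterol genes and SREBF1 tied more to fatty acid synthesis in mammals. srebf2 (ENSDARG00000063438, GRCz10 chromosome 3, 1338453 to 1598731, plus strand) was at 70.7, 59.1 and 73.4 CPM in mutant replicates 1 to 3 and at 89.9, 101.1 and 81.1 CPM in wild type replicates 1 to 3. Each mutant library was below each wild-type library, at a mean of 67.7 ± 7.59 CPM against 90.7 ± 9.99 CPM (SD, n = 3 each). The fold change was -0.42 on the log2 scale (SE 0.13), with an unadjusted edgeR p of 0.0135 and an adjusted p of 0.338. The 95% interval ran from -0.73 to -0.12. In 4 of the 6 fits that left out a single library, the unadjusted p of srebf2 was under 0.05. Exons of srebf2 overlap those of wbp11 on the opposite strand, and without a stated strand setting their reads cannot be told apart.

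SREBF1 (ENSDARG00000067607, chromosome 3) was at 15.8, 9.67 and 14.2 CPM in mutants and at 4.30, 16.95 and 12.5 CPM in wild type. Wild type replicate 1 stood apart at the low end, and the groups overlapped. The log2 fold change was 0.24 (SE 0.47) with all libraries and -0.16 without wild type replicate 1. SCAP (ENSDARG00000018096, chromosome 16) was likewise lowest in wild type replicate 1, at 20.4, 18.5 and 18.2 CPM in mutants and 3.83, 20.6 and 13.7 CPM in wild type. The SCAP log2 fold change of 0.59 (SE 0.52) was 0.15 without wild type replicate 1. Per kilobase of counted exons, srebf2 was more abundant than SREBF1 in all 6 libraries, by 3.50-fold to 4.77-fold in mutants and by 16.3-fold, 4.65-fold and 5.05-fold in wild type replicates 1 to 3.

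insig1 (ENSDARG00000010658, chromosome 7), whose product retains SCAP in the endoplasmic reticulum and whose transcription is itself driven by SREBP in mammals, was at 38.1, 20.1 and 28.7 CPM in mutants. In wild type it was at 57.9, 40.4 and 31.5 CPM. Of the mutants, only replicate 1 overlapped wild type. The fold change was -0.58 on the log2 scale (SE 0.29, unadjusted p = 0.0856 and adjusted p = 0.502 by edgeR), and it ranged from -0.81 to -0.31 as single libraries were left out. Exons of insig1 overlap an opposite-strand gene, si:dkey-151p11.2.

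The route opens with the joining of acetyl-CoA units. HMGCS1, the HMG-CoA synthase gene (ENSDARG00000103025, chromosome 10), was at 26.8, 20.6 and 21.7 CPM in mutants and at 34.2, 27.5 and 19.96 CPM in wild type, with overlapping groups and a log2 fold change of -0.24 (SE 0.22). ACAT2, which encodes the thiolase of the first step (ENSDARG00000007127, chromosome 20), was at 63.4, 37.8 and 27.9 CPM in mutants and at 38.1, 38.7 and 26.6 CPM in wild type. Only mutant replicate 1 lay outside the wild-type range. For ACAT2, the log2 fold change of 0.32 (SE 0.31) was -0.06 without that library.

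From mevalonate to farnesyl pyrophosphate, 0 of 5 genes had an unadjusted p under 0.05, against 11.2% of all tested genes. So few genes cannot show a difference from that share. The mevalonate kinase gene MVK was at 5.80, 5.81 and 4.17 CPM in mutants and 5.30, 5.27 and 3.74 CPM in wild type. The phosphomevalonate kinase gene PMVK was at 3.73, 4.80 and 3.90 CPM in mutants and 6.16, 5.03 and 4.31 CPM in wild type. MVD, which encodes the decarboxylase that yields isopentenyl pyrophosphate and answers here for both mvda and mvdb (ENSDARG00000099336, chromosome 18), was at 6.67, 4.38 and 6.21 CPM in mutants and 9.01, 8.24 and 6.03 CPM in wild type. Their log2 fold changes were 0.14, -0.32 and -0.43, with overlapping groups in each case. IDI1, the isopentenyl pyrophosphate isomerase gene, was among the more abundant, at 108.4, 115.3 and 112.4 CPM in mutants against 153.75, 111.5 and 97.4 CPM in wild type. Its 3 mutant libraries lay within the wild-type range, and its log2 fold change was -0.11 with a 95% interval of -0.51 to 0.29.

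FDPS, the farnesyl pyrophosphate synthase gene (ENSDARG00000040890, chromosome 16), was at 155.5, 72.0 and 49.3 CPM in mutants and 69.8, 71.1 and 43.2 CPM in wild type. The value of mutant replicate 1 was 2.23 times the median of the other 5 libraries. The log2 fold change was 0.59 (SE 0.42), and -0.0032 without that library. Exons of PMVK, MVD and FDPS overlap those of other genes, which leaves the share of reads from each uncertain.

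Farnesyl pyrophosphate is joined to squalene by the product of FDFT1, oxidized by squalene epoxidase (SQLE) and closed into lanosterol by lanosterol synthase (LSS). LSS (ENSDARG00000061274, GRCz10 chromosome 9, 38671985 to 38690596, plus strand) was at 1.65, 0.973 and 1.46 CPM in mutants and 3.83, 3.52 and 1.66 CPM in wild type. The groups did not overlap, but the gap between mutant replicate 1 (1.65 CPM, 55 counts) and wild type replicate 3 (1.66 CPM, 55 counts) was within counting error. The log2 fold change was -1.15 (SE 0.39, unadjusted p = 0.0212, adjusted p = 0.37 by edgeR), and it was -0.93 (unadjusted p = 0.0529) without wild type replicate 1.

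FDFT1 was at 3.88, 2.98 and 3.53 CPM in mutants and 1.47, 4.49 and 4.28 CPM in wild type, with wild type replicate 1 below all other libraries. The FDFT1 log2 fold change of 0.03 (SE 0.43) was -0.34 without wild type replicate 1. SQLE on chromosome 16 (ENSDARG00000079946) was at 9.35, 8.66 and 8.25 CPM in mutants, inside the wild-type values of 11.6, 11.6 and 5.34 CPM. The other SQLE copy (ENSDARG00000063319, chromosome 19) held 1, 7 and 6 counts in mutants and 15, 4 and 2 counts in wild type, and was not tested.

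The last stretch removes methyl groups from lanosterol and moves its double bonds. Here NSDHL, a dehydrogenase of C4 demethylation (ENSDARG00000099315, GRCz10 chromosome 14, 14341154 to 14353564, minus strand), was at 1.77, 1.37 and 1.46 CPM in mutants and 3.23, 2.95 and 2.11 CPM in wild type. All mutant libraries were below all wild-type libraries. NSDHL had a log2 fold change of -0.85 (SE 0.27, unadjusted p = 0.0163, adjusted p = 0.348 by edgeR), and the unadjusted p was under 0.05 in 5 of the 6 fits that left out a single library. MSMO1, the methylsterol oxidase gene that acts before NSDHL (ENSDARG00000055876, GRCz10 chromosome 1, 20223614 to 20235835, minus strand), was at 1.11, 0.486 and 1.02 CPM in mutants and 2.64, 1.59 and 1.18 CPM in wild type. Mutant replicate 1 (37 counts) and wild type replicate 3 (39 counts) nearly met. Its log2 fold change of -1.06 (SE 0.44, unadjusted p = 0.0473, adjusted p = 0.438 by edgeR) had an unadjusted p under 0.05 in 1 of 6 such fits.

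HSD17B7, the ketoreductase of the same demethylation cycle, was at 8.24, 5.50 and 6.41 CPM in mutants and 11.6, 8.89 and 5.70 CPM in wild type. The groups overlapped, with a log2 fold change of -0.38 (SE 0.30). Without wild type replicate 1, the log2 fold changes were -0.72 for NSDHL, -0.66 for MSMO1 and -0.12 for HSD17B7.

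Reduction of the C14 double bond can be carried out by the products of LBR, which is also a protein of the inner nuclear membrane that binds lamin B, and of TM7SF2. LBR (ENSDARG00000014013, GRCz10 chromosome 20, 36492784 to 36514043, minus strand) was at 166.7, 177.2 and 196.3 CPM in mutants and 248.3, 209.9 and 217.7 CPM in wild type, with no overlap. LBR had a log2 fold change of -0.32 (SE 0.11, unadjusted p = 0.0251, adjusted p = 0.381 by edgeR). Its unadjusted p was under 0.05 in 3 of the 6 fits that left out a single library. TM7SF2 (ENSDARG00000032816, chromosome 10) was at 2.01, 1.22 and 2.30 CPM in mutants and 4.54, 2.16 and 1.87 CPM in wild type, with overlapping groups. For TM7SF2, the log2 fold change of -0.65 (SE 0.43) was -0.13 without wild type replicate 1, and its exons overlap znhit2 on the opposite strand. Per kilobase, LBR was 54.3-fold as abundant as TM7SF2 in mutants and 43.8-fold in wild type.

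EBP, which encodes the sterol isomerase, was at 8.18, 6.201 and 7.75 CPM in mutants and 10.2, 7.33 and 7.75 CPM in wild type (log2 fold change -0.19). SC5D, the lathosterol oxidase gene, was at 2.95, 1.52 and 1.86 CPM in mutants and 1.81, 2.74 and 1.69 CPM in wild type (log2 fold change 0.02). DHCR7, whose product makes cholesterol from 7-dehydrocholesterol (ENSDARG00000103226, chromosome 2), was at 15.995, 7.51 and 8.65 CPM in mutants and 11.1, 10.9 and 11.3 CPM in wild type. Mutant replicates 2 and 3 were below the narrow wild-type range and mutant replicate 1 above it. DHCR7 was at -0.05 on the log2 fold change scale with all libraries and at -0.44 without mutant replicate 1.

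CYP51A1 lies outside the matching rule and was added after its values were seen. This gene (ENSDARG00000042641, GRCz10 chromosome 19, 598848 to 617437, minus strand), named for the lanosterol demethylase that the unmatched symbol cyp51 stands for, was at 8.12, 3.16 and 6.67 CPM in mutants and 25.9, 14.8 and 14.4 CPM in wild type. The lowest wild-type library was above the highest mutant library, and the log2 fold change was -1.62 (SE 0.39, unadjusted p = 0.00423, adjusted p = 0.285 by edgeR). DESeq2 called CYP51A1, at an adjusted p of 0.00531, where it called 2.21% of genes, and edgeR did not. DESeq2 was the looser of these 2 tools in data simulated with edgeR's own estimates of spread. There DESeq2 wrongly picked 86 unchanged genes and edgeR 17. Leaving out single libraries gave CYP51A1 log2 fold changes of -1.89 to -1.29.

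**Figure D2:**
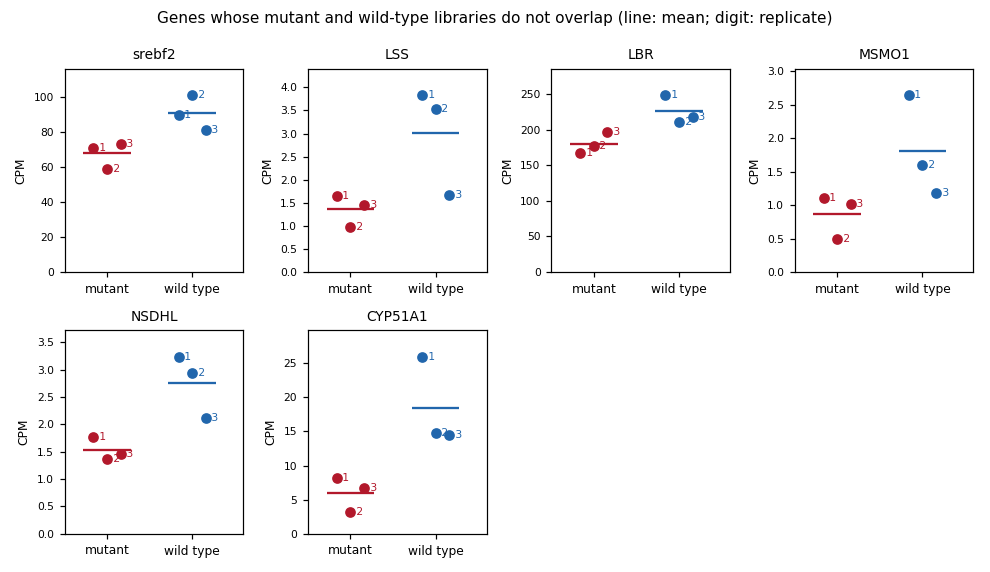
CPM in each library for the 5 tested sterol genes whose genotypes did not overlap and for CYP51A1, with mutants left of wild type, the mean as a line and the replicate number beside each point. srebf2 and LBR differed by small steps at high levels, while LSS, MSMO1 and NSDHL lay below 5 CPM in every library.

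Uptake of lipoprotein cholesterol was represented by ldlrb (ENSDARG00000026759, chromosome 6), at 44.0, 34.9 and 40.9 CPM in mutants and 41.4, 45.1 and 28.6 CPM in wild type. Mutant libraries lay within the wild-type range. The ldlrb log2 fold change was 0.06 with a 95% interval of -0.39 to 0.50. Its relative ldlra (ENSDARG00000029476, chromosome 3) was close to undetected, with 1, 2 and 2 counts in mutants and 14, 4 and 3 counts in wild type, and was not tested.

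NPC1 and NPC2 encode the proteins that pass cholesterol out of the lysosome after lipoproteins are taken up. NPC1 (ENSDARG00000017180, GRCz10 chromosome 2, 3992924 to 4036082, plus strand) was at 149.8, 93.7 and 72.8 CPM in mutants and 73.1, 83.8 and 60.6 CPM in wild type. Mutant replicates 1 and 2 exceeded every wild-type library and mutant replicate 3 did not. NPC1 had a log2 fold change of 0.54 (SE 0.27, unadjusted p = 0.0805, adjusted p = 0.495 by edgeR), and 0.21 without mutant replicate 1. The abundant NPC2 gene (ENSDARG00000090912, GRCz10 chromosome 17, 43031045 to 43041345, minus strand) was at 550.4, 307.4 and 98.0 CPM in mutants and 121.7, 207.7 and 96.5 CPM in wild type. Mutant replicates 1 and 2 were above every wild-type library, and mutant replicate 3 was close to the lowest of them. Its log2 fold change of 1.17 (SE 0.58, unadjusted p = 0.0836, adjusted p = 0.499 by edgeR) was 0.53 without mutant replicate 1.

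A second, short NPC2 entry (ENSDARG00000096979) shares exon sequence with the first on the same strand and held 17, 4 and 2 counts in mutants and 53, 31 and 10 counts in wild type. Its log2 fold change of -1.14 (SE 0.75) is uncertain, since reads of the 2 entries cannot be assigned with confidence.

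SOAT1 and SOAT2 encode the acyltransferases that store cholesterol as esters. SOAT1 (ENSDARG00000062297, chromosome 8) held 142, 13 and 10 counts in mutants and 51, 27 and 19 counts in wild type, which is 4.27, 0.395 and 0.291 CPM against 0.407, 0.704 and 0.573 CPM. Mutant replicate 1 was 10.5 times the median of the other libraries, and mutant replicates 2 and 3 were below all wild-type libraries. SOAT1 had a log2 fold change of 1.58 (SE 0.99) with all libraries and -0.67 without mutant replicate 1. SOAT2 (ENSDARG00000059824, chromosome 6) was at 18.9, 3.31 and 2.83 CPM in mutants and 2.76, 9.65 and 5.91 CPM in wild type. Its log2 fold change of 0.46 (SE 0.79) was -0.98 without mutant replicate 1.

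Mutant replicate 1 was the highest of the 6 libraries for 8 of the 28 genes, against 21.1% of all tested genes, namely ACAT2, FDPS, SC5D, DHCR7, NPC1, the abundant NPC2 gene, SOAT1 and SOAT2. With 28 genes, this count cannot show a difference from that share. The same library, mutant replicate 1, had the highest level of yolk syncytial layer markers. The 8 genes were picked for being highest in that library, so their shared peak does not by itself link them to the yolk markers. Their summed level was 17441, 6040 and 1928 CPM in mutant replicates 1 to 3 and 3567, 6798 and 2866 CPM in wild type replicates 1 to 3. Of 13 tested yolk markers 12 had a positive log2 fold change, and the exception was apoea. At an unadjusted edgeR p under 0.05, 0 of the 13 were higher (4.39% of all tested genes) and 1, apoea, was lower (6.83%). For 0 of the 13 did all mutant libraries lie above all wild-type libraries (8.45% of all tested genes). Of 15 matched markers 0 were without a count, and TTR and mxtx2 were below 0.3 CPM in every library. The yolk sum of mutant replicate 3 was below every wild-type library, as were its levels of 2 of the 8 sterol genes, SOAT1 and DHCR7. How much of the differences in these genes went with the amount of yolk-layer RNA was not tested.

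**Figure D3:**
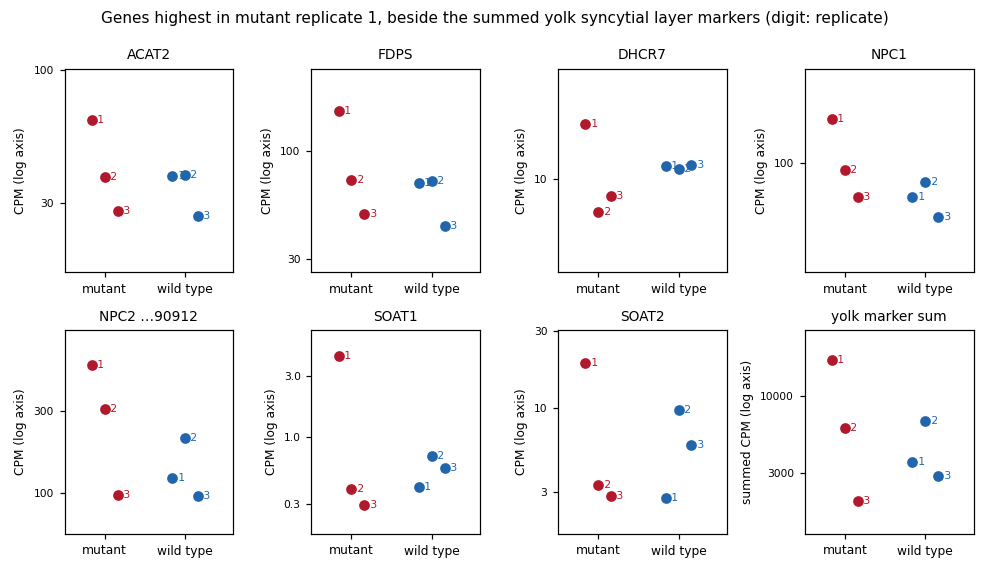
CPM by library, on log axes, for 7 of the 8 sterol genes that were highest in mutant replicate 1, with the summed yolk syncytial layer markers in the last panel. Mutants are left of wild type and digits give the replicate. Mutant replicate 1 is the top point in every panel, which for the sterol genes follows from how they were picked.

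Other libraries also lay at the extremes. Mutant replicate 2 was the lowest of the 6 for 11 of the 28 sterol genes, against 12% of all tested genes, and wild type replicate 3 was the lowest for 9, against 11.1%. Wild type replicate 1, the deepest library, was the highest of the 6 libraries for 13 of the 28 sterol genes and the lowest for 4 (SREBF1, SCAP, FDFT1 and SOAT2). Over all tested genes it was the highest for 28.8% and the lowest for 25.5%. Without it, 17 of the 28 genes were below wild type, with a median log2 fold change of -0.06, and 2 had an unadjusted p under 0.05. Without both it and mutant replicate 1, an arrangement chosen after the data were seen, 20 of 28 were lower, with a median of -0.24. Shares and medians over all tested genes are not given here for these fits.

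**Figure D4:**
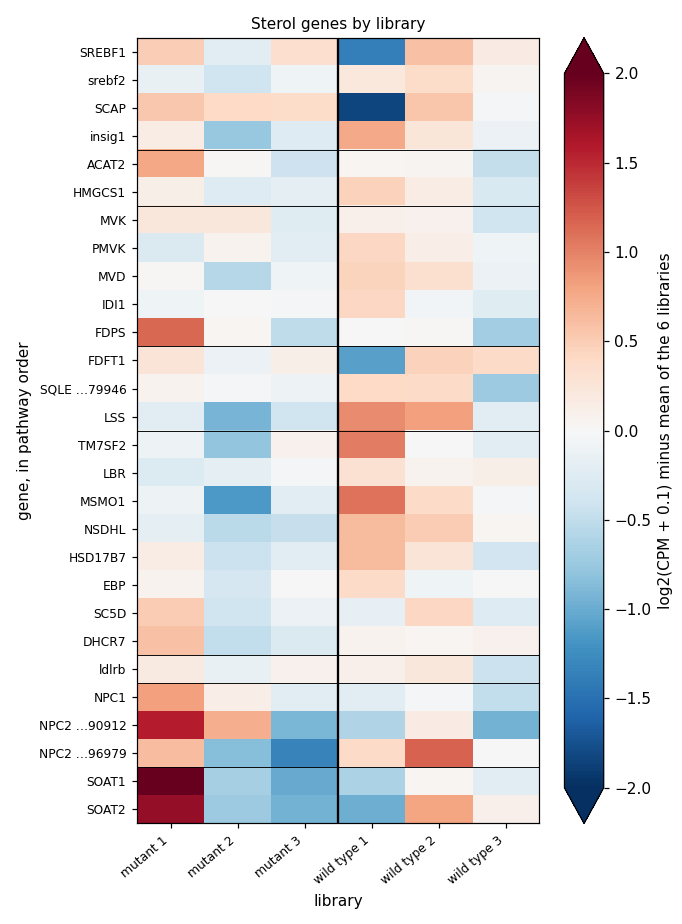
Log2(CPM + 0.1) of each of the 28 tested sterol genes minus its mean over the 6 libraries, with mutant libraries left of the black line, wild type right of it and genes in pathway order. Wild type replicate 1 is red for most synthesis enzymes. It is blue for genes that include SREBF1, SCAP, FDFT1, the abundant NPC2 gene, SOAT1 and SOAT2. Mutant replicate 1 is red from NPC1 to SOAT2.

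Compared per kilobase of counted exons, levels along the pathway spanned several orders of magnitude in both genotypes. The abundant NPC2 gene stood at 202 ± 144 CPM per kb in mutants and 90.2 ± 37.0 in wild type (SD, n = 3 each), and LBR at 58.4 ± 4.87 and 73.1 ± 6.58. IDI1 was at 34.2 ± 1.06 CPM per kb in mutants and 36.9 ± 8.95 in wild type. MSMO1 and LSS were each under 1 CPM per kb in mutants, at 0.546 ± 0.211 and 0.529 ± 0.136, against 1.13 ± 0.473 and 1.17 ± 0.457 in wild type. The lowest was ldlra, at 0.00982 ± 0.00337 CPM per kb in mutants and 0.0202 ± 0.00214 in wild type.

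**Figure D5:**
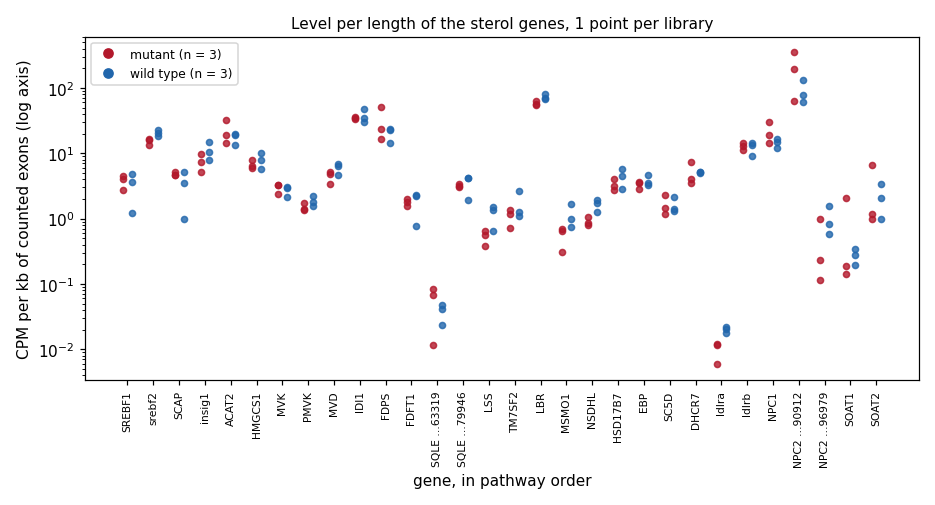
CPM per kilobase of counted exons, on a log axis, for all 30 matched sterol genes in pathway order, with 1 point per library and mutants left of wild type. LBR and the abundant NPC2 gene lie at the top, ldlra at the bottom, and the copies of SQLE and NPC2 lie far apart.

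Lists of neighbouring pathways were read in the same fit. Of 14 tested genes that process SREBP or sense sterols, 11 were higher in mutants (median log2 fold change 0.15), 4 were higher at an unadjusted p under 0.05 (4.39% of all tested genes) and 0 lower (6.83%), and 0 were called by edgeR over all genes, with 1 called higher by DESeq2 (0.706% of all genes). That gene was RNF145 (ENSDARG00000002609), which encodes a membrane-bound ubiquitin ligase that in mammals is induced by oxysterols and acts on SCAP. It was at 36.5, 57.4 and 44.8 CPM in mutants and 22.5, 20.7 and 24.3 CPM in wild type, a log2 fold change of 1.04 (SE 0.18, edgeR adjusted p = 0.15, DESeq2 adjusted p = 0.000335). Its paralogue rnf145b was at 0.23 and the transcription factor gene nfe2l1b at 0.28 on the same log2 fold change scale, with mutant libraries above wild type for both. Of the 14 genes, 7 had all mutant libraries above all wild-type libraries (8.45% of all tested genes). The reverse held for 0 of them (9.63%).

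Of 17 tested genes that respond to oxysterols or export cholesterol, 11 were higher and 6 lower (median 0.28), with 1 higher and 2 lower at an unadjusted p under 0.05 (4.39% and 6.83% of all tested genes) and 0 called by edgeR. ABCA1 (ENSDARG00000074635), the gene of a cholesterol efflux pump and a classic target of the oxysterol receptor LXR, was at 65.3, 78.2 and 67.3 CPM in mutants and 36.3, 44.4 and 49.0 CPM in wild type. Its libraries did not overlap, and its log2 fold change was 0.70 (SE 0.14, edgeR adjusted p = 0.199, DESeq2 adjusted p = 0.0125). The sterol hydroxylase gene cyp27a1.1 and the apolipoprotein gene apoea, itself among the yolk markers, were lower in every mutant library, at -1.41 and -2.02 on the log2 scale, though cyp27a1.1 was below 1 CPM throughout. Of the 17 genes, 1 had all mutant libraries above all wild-type libraries (8.45% of all tested genes) and 2 had all below (9.63%).

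Among 17 tested genes of sterol transfer and uptake, 14 were higher (median 0.24), with 2 higher and 0 lower at an unadjusted p under 0.05 (4.39% and 6.83% of all tested genes) and 0 called by edgeR or DESeq2. SCARB1, which encodes a lipoprotein receptor, was at 36.1, 20.2 and 13.2 CPM in mutants and 12.5, 12.9 and 10.3 CPM in wild type. OSBPL1A and OSBPL9, of the oxysterol-binding protein family, had log2 fold changes of 0.46 and 0.22, with mutant libraries above wild type for both. Of the 17 genes, 4 had all mutant libraries above all wild-type libraries (8.45% of all tested genes). The reverse held for 0 of them (9.63%). The fatty acid synthesis list had 0 of 17 genes at an unadjusted p under 0.05, against 11.2% of all tested genes, and a median of -0.15. Its 3 genes with the smallest p were GPAM, ACACB and ELOVL5, with log2 fold changes of 0.53, 0.36 and 1.25. ELOVL5 was at 41.2, 11.2 and 4.78 CPM in mutants and 4.89, 13.1 and 6.21 CPM in wild type, with mutant replicate 1 alone above the wild-type range. Of 15 tested isoprenoid branch genes, 7 were higher and 8 lower (median -0.08), with 1 higher and 0 lower at an unadjusted p under 0.05 (4.39% and 6.83% of all tested genes). The smallest p was that of the dolichol enzyme gene SRD5A3 (log2 fold change 0.43), followed by PDSS1 (-0.22) and DHDDS (-0.23).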

How the data were processed

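Whole-embryo RNA-seq libraries, 3 per genotype, were grouped by the sample titles. Each library came as a deposited table of whole-number gene counts. GRCz10, STAR 2.5.2b and Trimmomatic 0.36 are named in the submitters' processing notes. The sources used here do not state the counting program, its strand setting, its annotation or whether reads with several alignments were counted. Symbols came from a gene name table that covers 25752 of 31484 gene IDs. Genes were kept with filterByExpr, scaled by TMM and tested with edgeR 4.0.16 under R 4.3.3 (robust quasi-likelihood F test, two-sided, no covariate, adjusted p under 0.05). The SE is the log2 fold change divided by the square root of F, and 95% intervals use the test's degrees of freedom. DESeq2 1.42.0 and limma 3.58.1 (voom) were alternatives, as were other scalings and filters, non-robust dispersion, a replicate block, thinning of wild type replicate 1, a threshold of 0.01 and each library left out. Code was tested on simulated data, in which sets of 50 genes were changed by a known fold. The changed genes had a mean of at least 1 CPM, so genes below that level are not covered. Counts were drawn with the spread that edgeR estimated for each gene, so the comparison of tools rests on edgeR's own estimates. Of genes changed 2-fold, edgeR picked up 28% and DESeq2 48%, and of those changed 4-fold, 78% and 90%. Genes left unchanged were wrongly picked 17 times by edgeR and 86 times by DESeq2. A gene called by DESeq2 alone is therefore less certain, and a count of 0 by edgeR can hide changes of 2-fold. Some genes of the pathway are not reported here and enter no count of sterol genes. The genes, lists and tests were chosen with earlier results of these data known. Named in full were the regulators and the 12 members with the smallest p, with other members by their values, and the 3 smallest p of each related list. No pair of libraries agreed within sampling noise (lowest chi-square per degree of freedom 31.5, genes with at least 20 counts per pair). The p values set the difference between genotypes against the spread between the submitters' biological replicates.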

Additional observations from a re-analysis of the deposited data

How the results depend on the processing

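Under every alternative run, 0 of the tested sterol genes matched by the rule were called. CYP51A1, which lies outside that rule, was called by DESeq2. The count over all genes, 15, was 450 with DESeq2, 44 with no filter, 8 with at least 1 CPM in 3 libraries, 3 at a threshold of 0.01, 0 with the replicate block and 0 to 16 as single libraries were left out (0 without mutant replicate 2, 2 without mutant replicate 1 or wild type replicate 3, 8 without mutant replicate 3). Sterol genes lower at an unadjusted p under 0.05, 5 with all libraries, numbered 0 to 6 on leaving out libraries, with 0 without mutant replicate 2 and 2 without wild type replicate 1 or 2. Those higher, 0 with all libraries, numbered 0 to 3 (3 without mutant replicate 3) and 1 with DESeq2 (the abundant NPC2 gene). Their median log2 fold change stayed below 0, from -0.27 to -0.06. Shares at the unadjusted p, and medians, over all tested genes are not given here for these settings. The sterol counts and medians therefore have no baseline. The cause of these shifts was not tested.

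The labels do not say whether same-numbered libraries were paired. Correlations of same-numbered deviations were -0.233, -0.0971 and 0.182, and unlike-numbered ones ran from -0.309 to 0.366. With 3 libraries per group these correlations cannot settle the pairing. With the replicate block, 4 sterol genes were lower at an unadjusted p under 0.05 and the median was -0.11. The share and median over all tested genes with the block are not given here, so this count and median have no baseline. SOAT2 turned to -0.088 with the block, and FDFT1 to -0.028 with wild type replicate 1 thinned. Without mutant replicate 1 and wild type replicate 1 together, SREBF1 was at -0.30, FDFT1 at -0.43, SC5D at -0.39, SOAT1 at -0.89, SOAT2 at -1.34 and IDI1 at 0.13. Leaving out single libraries moved the log2 fold change across 0 for 12 genes, ACAT2 (-0.056 to 0.55), DHCR7 (-0.44 to 0.15), FDFT1 (-0.34 to 0.31), FDPS (-0.0032 to 0.89), IDI1 (-0.24 to 0.10), ldlrb (-0.11 to 0.22), MVK (-0.0075 to 0.28), SC5D (-0.28 to 0.30), SOAT1 (-0.67 to 2.08), SOAT2 (-0.98 to 0.98), SQLE (-0.41 to 0.066) and SREBF1 (-0.16 to 0.68). For SOAT1, LSS, MSMO1, NSDHL, TM7SF2, SC5D and the short NPC2 entry, counts under 100 in at least 4 of 6 libraries limit the precision.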

Other observations

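Hedgehog proteins carry a covalently bound cholesterol, and the receptor component Smoothened is itself regulated by sterols. Of 16 tested genes of this pathway, 8 were higher and 8 lower in mutants, with a median log2 fold change of -0.01, and 0 were called by edgeR or DESeq2 over all genes. At an unadjusted edgeR p under 0.05, 2 were higher and 1 was lower, against 4.39% and 6.83% of all tested genes. SMO, the Smoothened gene, was at 175.7, 194.2 and 194.5 CPM in mutants and 144.7, 147.7 and 169.2 CPM in wild type (log2 fold change 0.29, SE 0.11, adjusted p = 0.391). GLI1, a direct transcriptional target, was at 72.7, 100.9 and 93.9 CPM in mutants and 68.4, 68.2 and 72.0 CPM in wild type (0.36, SE 0.14, adjusted p = 0.404). BOC, a co-receptor gene, was at 129.5, 144.8 and 159.6 CPM in mutants and 199.8, 165.7 and 181.7 CPM in wild type (-0.33, SE 0.12, adjusted p = 0.387). The libraries of the genotypes did not overlap for 5 of the 16 genes, against 18.1% of all tested genes. GLI1, SMO and GLI3 were higher in mutants and BOC and CDON lower, and GLI3 and CDON are named here after their values were seen.

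Among marker lists not described above, summed epidermal markers ranged from 15465 to 18597 CPM in mutants and from 18485 to 22985 CPM in wild type, with 4 of 8 lower. Summed glial and neural progenitor markers ranged from 1197 to 1727 CPM in mutants and from 1622 to 1785 CPM in wild type, with 9 of 10 lower. Summed blood markers stood at 380.4, 303.7 and 313.1 CPM in mutant replicates 1 to 3. In wild type replicates 1 to 3 they stood at 329.9, 199.2 and 912.0 CPM, with 6 of 7 markers lower in mutants. Only wild type replicate 3 lay above the mutant range.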
